A study of Homo sapiens with 6 samples.

Results

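The HOX genes encode homeodomain transcription factors that lie in 4 clusters, HOXA, HOXB, HOXC and HOXD, and the histone mark H3K27ac over these clusters was examined by chromatin immunoprecipitation sequencing (ChIP-seq) of the human leukemia line CCRF-CEM. The members were the broad peaks that overlapped 1 of 4 fixed windows by at least 1 bp. On hg19 these windows were chr7:27125000-27255000 for HOXA, chr17:46600000-46815000 for HOXB, chr12:54325000-54455000 for HOXC and chr2:176950000-177060000 for HOXD, together 0.0193% of the span of the chromosomes studied. They held 432 of the 1440888 peaks deposited for the 6 libraries.

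Acetylation of lysine 27 of histone H3 marks active promoters and enhancers. Where a HOX cluster is not in use, its chromatin is often held by Polycomb proteins, which deposit methylation on the same lysine. HOX genes stand in the order in which they are used along the body axis, with low-numbered genes at one end of each cluster and high-numbered genes at the other. In blood they act mainly in stem and early progenitor cells, and HOXA genes are known to be active in some T cell leukemias.

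CCRF-CEM is an established T lymphoblast line. Parental cells (wild-type in the labels) and cells with a knockout of SLFN11, a Schlafen protein that sensitises cells to replication stress, were each studied in 3 states. These were the vehicle DMSO (called control here) and 100 nM of camptothecin, a topoisomerase I inhibitor that causes replication stress, for 2 h or 4 h. Each state has 1 library, so every difference given here lacks a replicate check and no p between states was computed. Values of a genotype are always given in the order control, 2 h and 4 h. The sources used here do not say whether the knockout is 1 clone. The protocol text mentions only 4 h of treatment, while the sample labels give both times. The SLFN11 locus and T cell markers were not checked, and no gene is placed at a peak, because the gene table at hand is on another build than the peaks. Positions in a cluster are in kb from the end of the window with the lowest-numbered gene.

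The gene table (RefSeq, GRCh38.p14) lists 39 genes in the clusters and was used for names and order. HOXA has 11 genes, with HOXA13 at the high-coordinate end. From low to high coordinates, HOXB runs from HOXB1 to HOXB13 with 10 genes. HOXC and HOXD run the other way, from HOXC13 to HOXC4 and from HOXD13 to HOXD1, with 9 genes each. The promoters of 4 genes that name an end of a cluster are printed here, since the results turn on which parts of the clusters were marked. Each runs from 250 bases before to 50 after the start of the gene, and capitals mark CG dinucleotides. They come from RefSeq on GRCh38.p14, at chr7:27200042-27200341 on the minus strand (HOXA13), chr17:48530962-48531261 on the minus strand (HOXB1), chr2:176092471-176092770 on the plus strand (HOXD13) and chr2:176188418-176188717 on the plus strand (HOXD1).
HOXA13: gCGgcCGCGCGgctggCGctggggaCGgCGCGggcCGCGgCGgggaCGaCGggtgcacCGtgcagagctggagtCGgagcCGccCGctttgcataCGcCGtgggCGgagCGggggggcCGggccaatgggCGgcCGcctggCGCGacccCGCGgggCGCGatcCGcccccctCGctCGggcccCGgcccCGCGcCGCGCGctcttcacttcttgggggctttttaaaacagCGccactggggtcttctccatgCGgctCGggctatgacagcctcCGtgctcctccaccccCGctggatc
HOXB1: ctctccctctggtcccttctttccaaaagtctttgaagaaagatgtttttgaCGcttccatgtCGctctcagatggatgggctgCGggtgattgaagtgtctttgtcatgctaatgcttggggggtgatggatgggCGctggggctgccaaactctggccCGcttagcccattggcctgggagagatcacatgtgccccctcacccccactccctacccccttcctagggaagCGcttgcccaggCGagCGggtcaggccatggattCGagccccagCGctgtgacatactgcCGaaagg
HOXD13: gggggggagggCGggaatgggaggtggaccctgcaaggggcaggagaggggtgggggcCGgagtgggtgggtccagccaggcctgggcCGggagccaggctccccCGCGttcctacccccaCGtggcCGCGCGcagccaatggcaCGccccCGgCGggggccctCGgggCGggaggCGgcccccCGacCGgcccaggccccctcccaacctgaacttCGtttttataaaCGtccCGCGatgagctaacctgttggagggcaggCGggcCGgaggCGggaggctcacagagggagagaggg
HOXD1: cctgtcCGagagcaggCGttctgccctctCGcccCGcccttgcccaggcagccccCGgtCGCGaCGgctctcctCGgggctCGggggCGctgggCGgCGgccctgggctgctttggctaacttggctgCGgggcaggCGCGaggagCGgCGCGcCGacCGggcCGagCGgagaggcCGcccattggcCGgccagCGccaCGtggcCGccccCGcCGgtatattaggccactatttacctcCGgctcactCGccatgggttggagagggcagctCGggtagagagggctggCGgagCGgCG

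The HOXA13 promoter held 44 CG dinucleotides, more than 95.8% of the 35116 promoters in the table, and that of HOXD1 held 36, more than 87.3%. HOXD13 had 24 and HOXB1 had 11, the latter below the median of 14 for all promoters. The table gave 27 promoters for 20 of the HOX genes (26 distinct sequences, since HOXC4 and HOXC5 share a start). Their median was 22, and 20 of the 27 lay above the median of all promoters. HOXA3 gave several of the 27, while HOXB1 was the only gene of HOXB and HOXC4 and HOXC5 the only ones of HOXC. At least 1 CG was present in 96.3% of them and in 96.0% of all promoters of this length.

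The clusters also carry microRNA genes, and the miR-196 family recurs in 3 of them. In the table MIR196B lies between HOXA9 and HOXA10, MIR196A1 between HOXB9 and HOXB13, and MIR196A2 between HOXC10 and HOXC9. Their mature 5p strands are printed because they show what the clusters share, with the seed (bases 2 to 8) in capitals, from RefSeq on GRCh38.p14 at chr7:27169528-27169549 (minus strand) and chr12:53991762-53991783 (plus strand).
miR-196b-5p: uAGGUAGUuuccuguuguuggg
miR-196a-5p: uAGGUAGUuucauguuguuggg
The seed is the same in both, and MIR196A1 gives the same mature strand as MIR196A2.

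Strong H3K27ac in the HOX clusters was limited to a few peaks, most of them in HOXB and HOXD. Peaks with a −log10 q of at least 5, the level used here for a strong peak, numbered 2 in each parental library and in knockout control, 3 in knockout 2 h and 0 in knockout 4 h. HOXB and HOXD each had 1 strong peak in 5 of the 6 libraries, HOXC had 1 in knockout 2 h, and HOXA had 0 in all 6. Of all tiles of the genome as long as the HOXB window, 25.3% to 43.9% held a strong peak, depending on the library. The range was 15.5% to 30.6% for tiles as long as the HOXD window and 17.6% to 33.7% for tiles as long as the HOXA and HOXC windows. The lowest value of each range was that of knockout 4 h.

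The share of a window covered by deposited peaks of any strength was highest in HOXB in every library, with 8.03%, 12.5% and 10.5% (parental) against 12.5%, 8.86% and 10.9% (knockout). HOXC was covered to 4.11%, 8.32% and 7.82% (parental) against 11.8%, 5.20% and 8.47% (knockout). HOXD had 4.24%, 7.13% and 3.44% (parental) against 9.22%, 6.98% and 7.54% (knockout). HOXA had 2.42%, 8.86% and 4.07% (parental) against 5.42%, 2.70% and 4.89% (knockout), and was the least covered cluster in 4 of the 6 libraries. HOXD was lower in parental 2 h and 4 h, and HOXC was also lower in parental 2 h.

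These shares have to be read against the lists they come from. Deposited peaks covered 4.07% to 4.19% of the span of chromosomes 1 to 22 and X in the parental lists and 5.24% to 6.36% in the knockout lists. HOXB had 1.69 to 3.03 times the cover of its list, HOXC 0.993 to 2.02 times and HOXD 0.821 to 1.73 times. For HOXA it was 0.595, 2.15 and 0.970 times (parental) against 0.852, 0.516 and 0.783 times (knockout), so only parental 2 h was above its list. Of all tiles of the same length, 77.6% to 89.8% had less cover than HOXB, 68.1% to 82.9% less than HOXC, 67.4% to 80.3% less than HOXD and 56.4% to 83.9% less than HOXA.

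**Figure D1:**
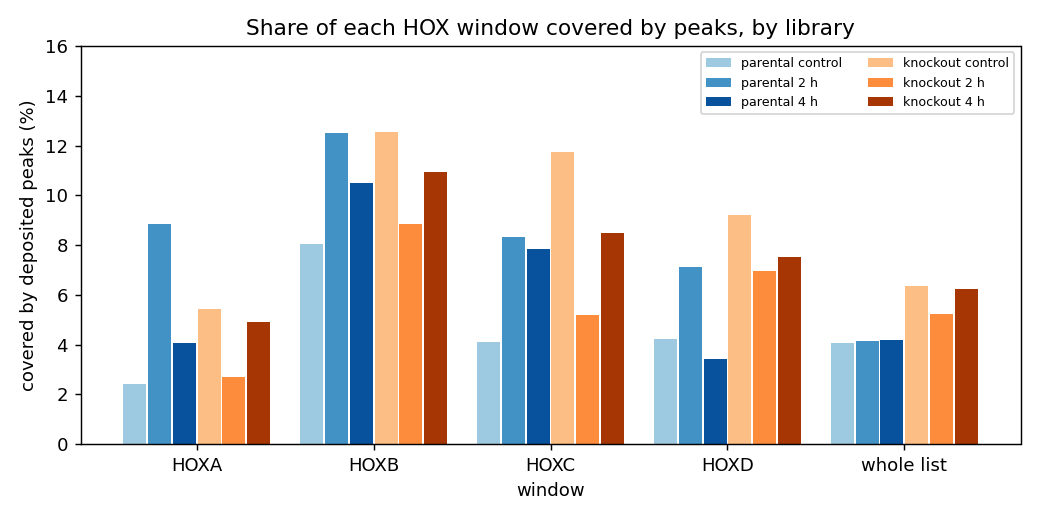
Percent of each HOX window covered by deposited peaks (vertical axis, linear from 0) in each of the 6 libraries, with the cover of the whole list at the right. Each bar is 1 library. HOXB is the most covered window in all 6, from 8.03% to 12.5%.

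Most of the peaks behind this cover were weak, and they were counted by number, not by bp covered. Of the 45 to 120 HOX peaks of a library, 0 to 3 were strong and 5 to 9 were among its 30000 peaks of smallest p. The whole lists held 171713 to 402427 peaks, of which 5467 to 15215 were strong. The pair of fold and p that is commonest in a list stands for a pileup of 2 fragments (1 in knockout 4 h). It was carried by 15.6%, 31.9% and 29.6% of the HOX peaks in the parental libraries, where the whole lists had 17.4%, 14.7% and 16.5%. In the knockout libraries it was 29.1%, 25.5% and 70.0% of the HOX peaks, where the whole lists had 17.6%, 14.0% and 59.8%. The background pileup, a measure of relative depth, was 0.506 to 0.603 fragments per base in the parental libraries. It was 0.699 for knockout control, 0.715 for knockout 2 h and 0.168 for knockout 4 h.

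Peaks of the 6 lists that overlapped were joined into sites, 221 of them in the HOX windows. HOXA had 47, HOXB 85, HOXC 44 and HOXD 45. Of these, 137 (62.0%) had a peak in 1 library only, against 54.2% of the 597192 sites of the genome. All 6 libraries had a peak at 14 of them (6.33%), against 10.5%. HOXB had 7 of the 14, HOXD 4, HOXC 2 and HOXA 1. To compare lists of unequal length, the top list of a library was set as its 30000 peaks of smallest p. In the clusters, 12 of the 221 sites reached a top list in any library, where 58489 of the 597192 sites of the genome did. All 6 top lists shared 2 of the 12, where the share over the 58489 such sites of the genome was 24.5%.

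**Figure D2:**
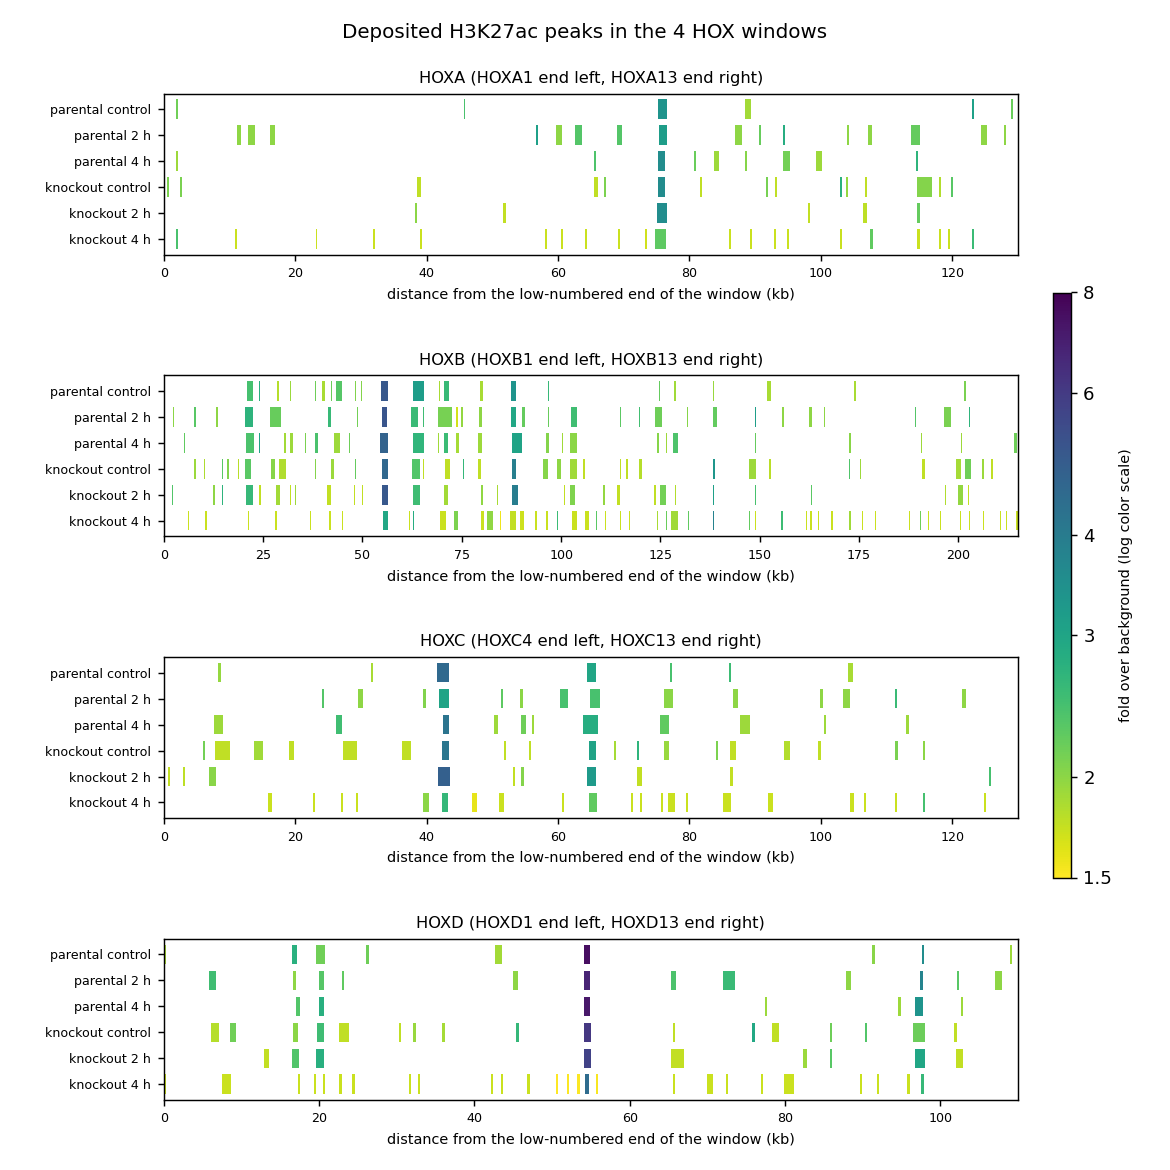
Deposited peaks of the 6 libraries (rows) in each HOX window, against the distance in kb from the end with the low-numbered gene. Each bar is 1 peak and its color gives the fold on a log scale. Peaks of all 6 libraries line up at 54.6 kb in HOXD and 55.4 kb in HOXB.

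Each window was cut into 4 segments of equal length, with segment 1 at the low-numbered end. In HOXA, segment 3 had 7.21%, 11.8% and 11.5% (parental) against 7.98%, 4.41% and 8.80% (knockout) and was the most covered in 5 libraries. Knockout control had more in segment 4 (10.1%). The longest stretch without any deposited peak was in parental 4 h, where 63.5 kb from 2.03 to 65.5 kb, or 48.8% of the HOXA window, was bare.

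In HOXB segment 2 had 15.2%, 23.4% and 23.9% (parental) against 21.5%, 14.0% and 23.7% (knockout), the highest of the 4 segments in all 6 libraries. Segment 1, with the HOXB1 end, had 10.6% to 13.5% in 5 libraries and 3.09% in knockout 4 h, with a peak of the top list in 1 library. Segment 3 had 3.44%, 7.79% and 3.69% (parental) against 7.11%, 7.38% and 8.88% (knockout), with a peak of the top list in 4 libraries. Segment 4, with the HOXB13 end, had 2.20%, 6.28% and 2.53% (parental) against 8.07%, 3.42% and 8.01% (knockout) and no peak of a top list. In knockout 4 h segments 3 and 4 were thus more covered than segment 1. The longest bare stretch of HOXB lay beyond 149 kb in 4 libraries, and the longest of these was 33.4 kb, from 163 to 197 kb in knockout 2 h. In parental control it lay from 96.8 to 125 kb, and in knockout 4 h from 10.7 to 21.1 kb.

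In HOXC neither end had a peak of a top list in any library, and the peaks that reached one lay in segments 2 and 3. Segment 4, the HOXC13 end, was covered to 0.668% to 7.24%. The HOXC4 end had 2.25% to 7.02% in 5 libraries and 20.6% in knockout control. In HOXD the HOXD1 end had no peak of a top list either, though weaker peaks covered 4.09% to 16.8% of it. Segment 3 of HOXD had 0%, 7.54% and 0.727% (parental) against 4.85%, 6.46% and 9.77% (knockout). In parental control a bare stretch of 36.4 kb ran from 54.9 to 91.2 kb. Segment 4, with the HOXD13 end, was covered to 2.64% to 9.60% and held a peak of the top list in 4 libraries.

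**Figure D3:**
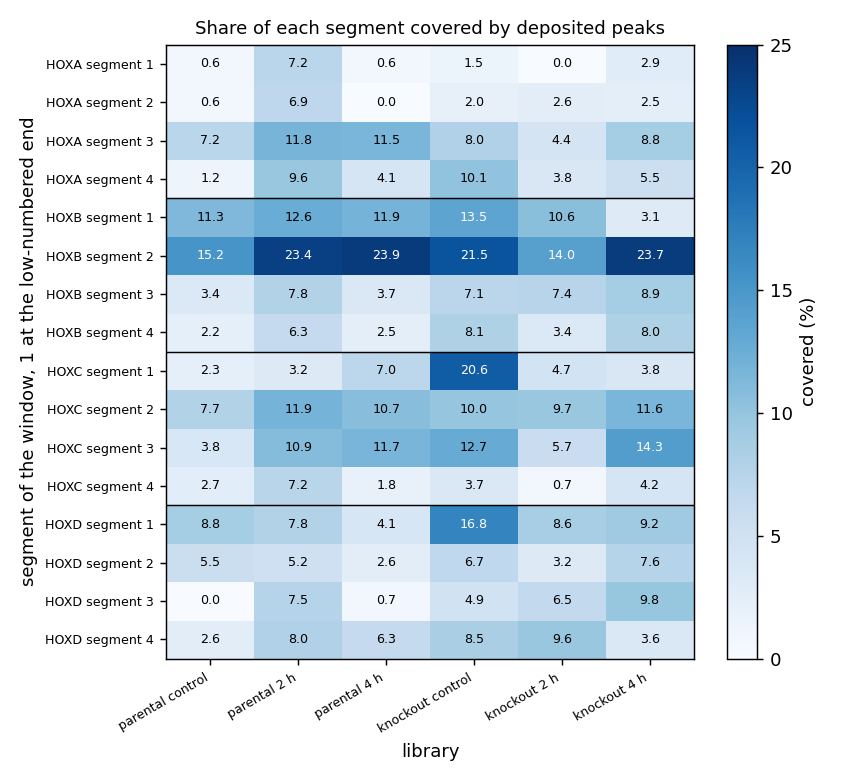
Percent of each segment of the 4 windows covered by deposited peaks, with segment 1 at the end of the low-numbered gene (rows), in each library (columns). The number in a cell is its value and the color follows it. HOXB segment 2 has the highest median, 22.4%.

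With all 6 lists joined, the longest stretch without a peak was 9.50 kb, in HOXD from 55.8 to 65.3 kb. It was 8.52 kb in HOXA, 8.39 kb in HOXB and 5.70 kb in HOXC. In single libraries the longest bare stretch of a cluster was 10.5 to 63.5 kb.

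The strongest HOX site by p in 5 of the 6 libraries lay in HOXD at 54.6 kb, near the middle of the window, at chr2:177004976-177005896. In knockout 2 h the lead site of HOXB was stronger. The fold of the HOXD site over the background was 7.52, 6.79 and 7.20 (parental) against 6.11, 5.74 and 4.46 (knockout). Its −log10 p was 15.9, 12.9 and 14.6 (parental) against 12.0, 9.80 and 6.17 (knockout). Both measures were higher in each parental library than in any knockout library. The part of depth in this difference was not tested. The fold stands for a mean pileup of about 11.1, 9.23 and 10.3 (parental) against 9.37, 8.85 and 4.21 (knockout) fragments. The peak was 724 to 746 bp wide in the parental and 491 to 905 bp in the knockout libraries. By p it ranked 7041, 7969 and 7750 (parental) against 9586, 12170 and 8307 (knockout), which is the upper 2.06% to 5.58% of each list.

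The strongest HOXB site in 5 libraries lay at 55.4 kb, in segment 2, at chr17:46654360-46656457. Its fold was 5.07, 5.13 and 4.71 (parental) against 4.57, 5.07 and 2.95 (knockout), so the genotypes overlapped. Its −log10 p was 14.1, 11.8 and 11.6 (parental) against 8.10, 10.4 and 3.30 (knockout), lower in each knockout library than in any parental one. Within the lists it ranked 7994, 8602 and 9336 (parental) against 13281, 11667 and 28383 (knockout).

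The strongest site of HOXC in all 6 libraries lay at 42.6 kb, in segment 2, at chr12:54411458-54413433. Its −log10 p was 6.49, 3.40 and 5.41 (parental) against 6.22, 8.13 and 3.04 (knockout). Parental 2 h and knockout 4 h were lowest, and the genotypes overlapped. Its fold was 4.55, 3.02 and 4.20 (parental) against 4.15, 4.82 and 2.63 (knockout). Its rank lay between 13974 (knockout 2 h) and 41826 (knockout 4 h).

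HOXA had 1 site with a peak in all 6 libraries, at 75.7 kb in segment 3, at chr7:27199801-27201666. These hg19 coordinates resemble those of the HOXA13 promoter printed above, but that promoter is on GRCh38.p14. The likeness does not place the site at HOXA13. Its −log10 p was 4.02, 3.62 and 4.20 (parental) against 4.40, 4.37 and 2.74 (knockout). Its fold was 3.37, 3.16 and 3.54 (parental) against 3.57, 3.55 and 2.27 (knockout), so 5 libraries were close together and knockout 4 h was lower. The ranks of these 5 ran from 20303 (parental 4 h) to 27325 (parental 2 h). In knockout 4 h the strongest HOXA peak was another one, 202 bp wide at 123 kb towards the HOXA13 end, with a fold of 2.55. Parental control also had a peak there, with a fold of 3.08, and the other 4 libraries had none.

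At 139 kb in HOXB, chr17:46738205-46739141, lay the strongest HOXB peak of knockout 4 h. The −log10 p of this site was 3.74, 3.42 and 5.27 in the knockout libraries. It was 1.72 and 2.17 in parental control and 2 h, and parental 4 h had no peak. The site was in the top list of each knockout library and of no parental library, which held for 1 of the 12 HOX sites and for 0.378% of such sites in the genome. It was picked by its value in a knockout library and came among the 12 through the knockout lists alone, so its values in the 2 genotypes are a description only. The mean pileup in the knockout libraries was about 4.64, 4.33 and 3.44 fragments.

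The other 7 sites that reached a top list were chosen after their values were seen. At 89.0 kb in HOXB (chr17:46687089-46690831) the −log10 p was 4.07, 3.28 and 3.41 (parental) against 5.10, 5.61 and 1.81 (knockout). At 63.8 kb in HOXB (chr17:46662134-46665560) it was 3.67, 2.60 and 2.81 (parental) against 2.28, 2.58 and 3.63 (knockout). At 65.1 kb in HOXC (chr12:54388650-54391145) it was 3.32, 2.43 and 3.01 (parental) against 3.36, 3.82 and 2.65 (knockout). The genotypes overlapped at these 3 sites.

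Towards the HOXD13 end, at 97.2 kb (chr2:176962025-176963570), the −log10 p was 4.19, 4.58 and 4.00 (parental) against 2.04, 3.24 and 3.25 (knockout). Here each parental library was above each knockout library, at a site picked after its values were seen. By −log10 p the same held for 5.31% of the 18835 regions described below, a set without this site. The peaks at the site differed in width between libraries. The part of depth and of peak width in this difference was not tested, and the 3 states are not replicates of a genotype. The remaining 3 sites each lacked a peak in at least 1 library. They were the HOXA site at 123 kb and a pair in HOXB at 24.1 and 148 kb. At 24.1 kb parental control (2.97), parental 4 h (3.45) and knockout 2 h (1.44) had a peak. At 148 kb parental control had none, and the other 5 libraries had between 1.66 and 3.53.

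**Figure D4:**
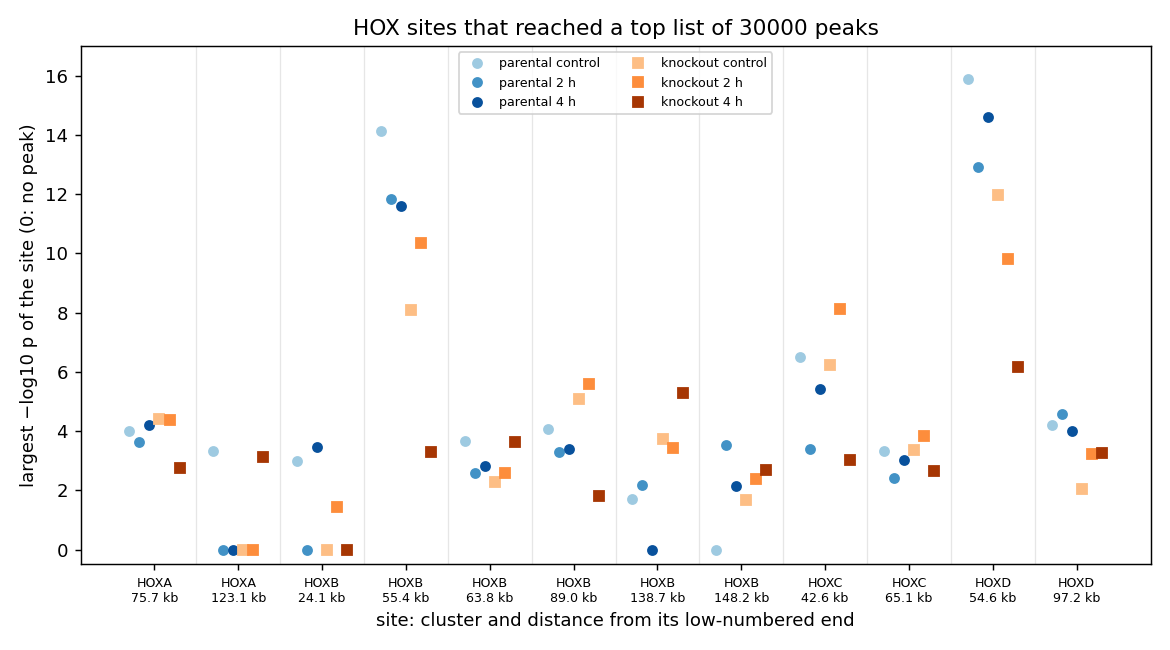
The −log10 p of the 12 HOX sites that reached a top list of 30000 peaks in any library (vertical axis; 0 stands for no peak), with the sites by cluster and distance on the horizontal axis and 1 point per library, circles for parental and squares for knockout. The HOXB site at 55.4 kb and the HOXD site at 54.6 kb reach the highest values, 14.1 and 15.9 in parental control.

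Ranks over a fixed set of regions set the libraries side by side. Regions were the union of the 15000 peaks of smallest p of each library, with knockout 4 h left out. Of 18835 regions, 3 lay in HOX clusters, and these were the lead sites of HOXB, HOXC and HOXD. The HOXD region had ranks of 7039, 7955 and 7744 (parental) against 9572, 12127 and 7561 (knockout), and the genotypes overlapped. The HOXB region had ranks of 7988, 8588 and 9324 (parental) against 13251, 11628 and 14470 (knockout), and the knockout ranks were lower in strength than all parental ranks by at least 2304 places. By fold in place of p, the HOXB ranks of the genotypes overlapped and those of HOXD did not. The HOXC region had ranks of 14837, 17956 and 15529 (parental) against 15653, 13914 and 15246 (knockout).

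By rank, 1 of the 3 regions stood higher in all 3 parental than in all 3 knockout libraries, as did 9.90% of all regions. By −log10 p it was 2 of 3, where the share of all regions was 5.31%. By fold it was 1 of 3, where the share was 11.3%. With 3 regions, these counts are a description only.

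After camptothecin, a difference in rank over 3000 places in either direction was counted. In parental cells 1 of the 3 regions passed at 2 h (HOXC, lower after treatment), where 16.9% of all regions did, and 0 at 4 h, where 14.6% did. In knockout cells 0 passed at 2 h (9.19% of all regions) and 0 at 4 h (31.4%).

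Between the genotypes, 1 region passed in control (HOXB, lower in the knockout), where 15.0% of all regions did. At 2 h all 3 passed (20.0% of all regions). HOXB and HOXD were lower and HOXC was higher in the knockout. At 4 h 1 passed (HOXB, lower in the knockout), where 34.3% of all regions did. These comparisons and those after camptothecin share libraries. Each library enters at least 2 of them, and the controls enter the most.

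Windows of 5 kb marked by a peak of the top list took in the weaker sites. Of the 117 such windows in the clusters, 17 were marked in any library (14.5%, where the genome had 11.1%), 2 in all 6, and 100 in none. HOXA had 2 of the 17, HOXB 9, HOXC 3 and HOXD 3. The parental libraries marked 12, 5 and 9 of the HOX windows (10.3%, 4.27% and 7.69%), and the knockout libraries 7, 8 and 5 (5.98%, 6.84% and 4.27%). Over the genome each library marked 5.72% to 5.89%.

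Of 13 HOX windows marked in parental control or 2 h, 8 were marked in control only and 1 at 2 h only, where the shares of the genome were 21.6% and 20.5%. The 8 windows belong to the HOXC sites at 42.6 and 65.1 kb, the HOXB sites at 63.8 and 89.0 kb, the edge of the HOXB site at 55.4 kb and the HOXA site at 123 kb. The HOXA site had no deposited peak at 2 h, and the other 5 sites still had one. At 4 h, 5 of 14 were in control only and 2 at 4 h only (19.9% and 19.4% of the genome).

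In knockout cells at 2 h, 1 of 9 windows was in control only and 2 at 2 h only, with 17.3% of the genome in each direction. At 4 h, 4 of 9 were in control only and 2 at 4 h only (28.7% and 26.6%). Between the controls, 7 of 14 were marked in parental cells only and 2 in the knockout only (19.0% and 18.9%). At 2 h it was 2 of 10 in parental cells only and 5 in the knockout only (20.7% and 21.6%). At 4 h it was 6 of 11 in parental cells only and 2 in the knockout only (28.5% and 26.7%). The direction at 2 h was thus opposite to that in control and at 4 h. The 17 windows come from 12 sites, since a peak that crosses an edge marks both windows.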

How the data were processed

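H3K27ac was measured by ChIP-seq in 6 CCRF-CEM libraries, 1 per genotype and treatment. For each library the authors deposited broad peaks on hg19. The submitters' processing notes name, for trimming, Trim Galore 0.6.2 and Trimmomatic 0.39; for alignment, BWA 0.7.17; for file handling, SAMtools 1.8 and Picard 2.9.2; and for peaks, MACS2 2.1.2. Settings and the control sample of the calls: not given in the sources used here. The deposited fold was taken as a ratio of pileup to local background, with 1 added to both. The −log10 p and −log10 q are the authors' values for each peak. The deposited score was not used. None of these is scaled between libraries, so depth can move them.

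Peaks on chromosomes 1 to 22 and X were used. Cover, sites, regions and ranks were computed with Python 3.11.15, pandas 2.3.3 and NumPy 2.4.6. The background pileup was solved from the commonest pair of fold and p of a list with SciPy 1.17.1, and pileups of peaks assume that background throughout. Figures used matplotlib 3.10.9. The code was tested on simulated data.

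The members and lists were chosen with earlier results of these data known. Sites named in full were the 3 regions and the strongest peak of each cluster and library. Alternatives changed the choice of peaks, the windows, the regions and the measure of strength. Planned gene lists were not run, since an hg19 annotation was not used here.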

Additional observations from a re-analysis of the deposited data

Results flagged for a closer look

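In 3 clusters the cover by all deposited peaks was higher after camptothecin at both times in parental cells and lower at both times in knockout cells. The difference between the genotypes was not tested. The mean change over both times in parental cells minus that in knockout cells was 5.67 percentage points in HOXA, 6.12 in HOXB and 8.88 in HOXC. At 2 h and 4 h the changes in HOXA were 6.44 and 1.65 points (parental) against -2.72 and -0.529 (knockout). In HOXB they were 4.49 and 2.46 against -3.68 and -1.61, and in HOXC 4.20 and 3.71 against -6.55 and -3.28. HOXD did not share the pattern, with 2.89 and -0.795 (parental) against -2.24 and -1.68 (knockout). The cover of the whole lists moved the same way as that of the 3 clusters. It went from 4.07% to 4.13% and 4.19% (parental) and from 6.36% to 5.24% and 6.25% (knockout). Divided by the cover of the list, HOXC went from 1.01 to 2.02 and 1.87 (parental) and from 1.85 to 0.993 and 1.36 (knockout). The 5 kb windows marked by the 30000 peaks of smallest p, counted over the 4 clusters, did not follow the cover in parental cells, where they went from 12 to 5 and 9. In knockout cells they went from 7 to 8 and 5. The share of HOX peaks with the commonest pair of fold and p went from 15.6% to 31.9% and 29.6% (parental) and from 29.1% to 25.5% and 70.0% (knockout). The part of list length and of weak peaks in these changes was not tested.

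At the HOXB site at 63.8 kb the −log10 p moved the other way. At 2 h and 4 h it changed by -1.08 and -0.861 in parental cells and by 0.306 and 1.35 in knockout cells, and the mean difference was -1.80. This difference was not tested either. The values stand for mean pileups of about 2.31 to 4.07 fragments.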

How the results depend on the processing

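No paired analysis was run, because each group (1 genotype in 1 state) has 1 library. Pairing the genotypes by state would use the 3 states as replicates. Of 96 alternatives over 24 results, 37 kept the value close, 58 moved it and 1 was counted as reversed, and the causes were not tested. The 58 include the HOXD difference in rank given below, which changed sign by fold and with regions from all 6 libraries. For cover, close meant within a narrow interval that took each base pair as independent. Counts were allowed a wider relative change, so these numbers do not measure stability on 1 scale. The median cover over 6 libraries was 4.48% in HOXA, 10.7% in HOXB, 8.07% in HOXC and 7.05% in HOXD. From top lists it was 0.932%, 1.31%, 0.751% and 0.891%, and from strong peaks 0%, 0.630%, 0% and 0.671%, so that HOXD came above HOXB. With windows widened by 10 kb at both ends it was 4.84%, 10.1%, 7.44% and 6.41%. Bridging gaps of up to 1 kb gave 11.9% in HOXB and 8.44% in HOXC. Without knockout 4 h, an alternative chosen after seeing the data, it was 4.07% in HOXA, 10.5% in HOXB and 7.82% in HOXC. The median number of peaks, 12, 30, 12.5 and 10.5, was 1, 3, 1 and 2 from top lists and 0, 1, 0 and 1 from strong peaks.

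Windows marked in only 1 library of a pair numbered 9 and 7 for parental 2 h and 4 h, 3 and 6 for knockout 2 h and 4 h, and 9, 7 and 8 between genotypes in control, at 2 h and at 4 h. In that order all deposited peaks gave 48, 29, 48, 37, 52, 44 and 50. Strong peaks gave 1, 0, 2, 3, 2, 1 and 3, and 50 Mb of peaks gave 18, 8, 12, 22, 17, 15 and 21. Cover of at least 500 bp gave 5, 5, 2, 4, 3, 4 and 6. HOX regions past the gap numbered 1, 0, 0, 0, 1, 3 and 1 in that order. By fold they were 1, 0, 0, 2, 0, 1 and 3, with a gap of 1500 they were 1, 0, 3, 1, 2, 3 and 1, and with regions from all 6 libraries, 4 of them in the clusters, 1, 0, 0, 3, 1, 3 and 3. The parental ranks of the HOXB region were ahead by 2304 places, and by fold the difference was -1157. For HOXD it was -394, by fold 1289, and with regions from all 6 libraries 340. The background pileup of knockout 4 h was 0.168, and the part of depth in its values was not tested.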

Other observations

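Of the 14 HOX sites with a peak in all 6 libraries, 6 reached no top list. They lay in HOXB at 21.6, 28.8, 70.8 and 79.8 kb and in HOXD at 17.1 and 20.2 kb, towards HOXD1. At 70.8 kb in HOXB the −log10 p was 2.64, 1.96 and 2.59 (parental) against 1.47, 1.64 and 1.90 (knockout). At 20.2 kb in HOXD it was 2.01, 2.31 and 2.95 (parental) against 2.52, 2.95 and 1.90 (knockout). In knockout 4 h each of the 6 had a −log10 p of 1.90, which stands for a pileup of 1 fragment. HOXA and HOXC had no such site.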
